A study of Mus musculus with 8 samples.

Results

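Malat1, Neat1 and Tug1 are long noncoding RNAs known for their place in the nucleus. They were taken as the rows with these symbols in the deposited table of gene counts, and they are 3 of its 55292 rows. All 3 passed the filter on low counts, which left 17342 genes to test.

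The study sequenced poly(A)-selected RNA of E14 cells, a mouse embryonic stem cell line of strain 129/Ola grown with serum and leukaemia inhibitory factor (LIF). Each group used here had 2 libraries. The first group, KO_Smad7, was E14 of genotype lncSmad7-/- which the labels call transfected with Smad7 and whose description adds 24 h; Smad7 restrains signalling by the TGF-beta family. The second, KO, was E14 of genotype lncSmad7-/- left untreated, and the third, WT, was untreated wild type E14; lncSmad7 is the long noncoding RNA that the knockout targets. The labels do not say whether the knockout is 1 clone or how Smad7 was delivered. A group labelled as transfected with lncSmad7 was not analysed here. The series calls the replicates biological and says nothing of separate cultures, and the spread behind each p-value may therefore be only technical.

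Malat1 is one of the most abundant nuclear RNAs of mammalian cells and gathers in nuclear speckles, where splicing factors are stored. Neat1 is the scaffold of paraspeckles, nuclear bodies that assemble on its long transcript around the proteins Sfpq and Nono, while its short transcript shares the same start and ends at a poly(A) site. Tug1, first described in the developing mouse retina, is a spliced and polyadenylated RNA found in both nucleus and cytoplasm. The long Neat1 transcript and Malat1 have no usual poly(A) tail: RNase P cuts them before a tRNA-like fold, and the new end folds back on an encoded A-rich stretch as a triple helix.

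The ends of the transcripts are shown because the libraries were made from RNA selected for poly(A). All are from the GENCODE mouse transcripts of release M21 (GRCm38), read on the minus strand, 5′ to 3′. The first pair ends at the encoded A-rich stretch of Malat1, at chr19:5795982-5796071, and at the end of the long Neat1 transcript, at chr19:5824708-5824797. Capitals mark the last 11 bases, which both share, and other stretches common to both are left unmarked.
Malat1 encoded A-rich end: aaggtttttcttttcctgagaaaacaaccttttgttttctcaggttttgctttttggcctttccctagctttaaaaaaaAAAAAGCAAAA
Neat1 long transcript end: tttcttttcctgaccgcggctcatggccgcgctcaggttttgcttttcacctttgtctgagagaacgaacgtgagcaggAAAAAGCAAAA

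The long Neat1 annotation stops at these bases, whereas the longest annotated Malat1 transcript runs on for 292 bases past them. The 11 bases occur once in that Malat1 transcript and somewhere in 304 of 55404 transcripts, taking the longest of each gene (0.549%). The next 3 sequences are the last 40 bases of annotated transcripts, with the signal AATAAA in capitals. They lie at chr19:5795690-5795729, chr19:5842307-5842346 and chr11:3639785-3639824.
Malat1 longest transcript end: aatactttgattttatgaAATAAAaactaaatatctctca
Neat1 short transcript end: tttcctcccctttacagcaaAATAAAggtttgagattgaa
Tug1 longest transcript end: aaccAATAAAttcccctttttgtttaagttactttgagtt

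The signal stands 16 bases before the end of the longest Malat1 transcript, 14 before the end of the short Neat1 transcript and 30 before that of the longest Tug1 transcript. The same 6 letters are found in the last 40 bases of 29.4% of the longest transcripts. Whether the reads come from transcripts with or without a poly(A) tail cannot be told apart in counts per gene.

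Malat1 (ENSMUSG00000092341.3) lies at chr19:5795690-5802672 on the minus strand and is annotated as a lincRNA with 4 transcripts, the longest a single exon of 6983 bases. Neat1 (ENSMUSG00000092274.3) lies beside it at chr19:5824708-5845478, on the same strand and 22035 bp away. It is also a lincRNA with 4 transcripts, among them the long form, a single exon of 20771 bases, and the short form of 3004 bases. Tug1 (ENSMUSG00000056579.18) lies at chr11:3639785-3649673 on the minus strand, has 8 transcripts, and is typed as antisense because it overlaps Morc2a by 483 bp. Counts per gene cannot separate the short from the long Neat1 transcript.

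Library totals lay between 13392941 and 20209760 counts, and the TMM scaling factors were 1.16 in KO_Smad7, 0.97 and 0.98 in KO, and 0.88 and 0.89 in WT. The targeted row, lncSmad7, held 10.8 and 11.2 CPM (counts scaled to library size with the TMM factors) in KO_Smad7, 7.14 and 5.52 in KO, and 13.98 and 12.4 in WT. Smad7 itself held 93.8 and 99.4 CPM in KO_Smad7, 75.5 and 69.6 in KO, and 97.6 and 97.7 in WT. The lncSmad7 row was thus lower in the KO libraries but not absent, with 140 and 105 counts. It was above KO in the libraries labelled Smad7-transfected as well, so these are named by their label only. Defining markers of embryonic stem cells were present in all 6 libraries, with none of 8 at 0. Their summed level was 4377 and 4362 CPM in KO_Smad7, 6574 and 6669 in KO, and 4845 and 4922 in WT.

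The 3 RNAs each took their own course over the groups. Neat1 rose 4.01-fold in KO against WT and a further 1.34-fold in KO_Smad7. Tug1 fell 1.85-fold in KO and stayed below WT in KO_Smad7. Malat1 was 1.31-fold higher in KO than in WT without being called. It was highest in KO_Smad7, where its replicates were far apart. Of the 3, Neat1 was called higher and Tug1 lower in KO against WT, in a comparison where 67.7% of genes tested were called, 34.5% higher and 33.3% lower. All 3 were called higher in KO_Smad7 against KO, where 74.6% of genes were called, 37.8% higher and 36.8% lower. With offsets for GC content and length of the longest transcripts, none of the 3 was called higher there. Against WT, KO_Smad7 had 2 called higher and 1 lower, where 81.9% of genes were called, 43.1% higher and 38.8% lower. With shares this large, a call by itself says little about these genes.

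**Figure D1:**
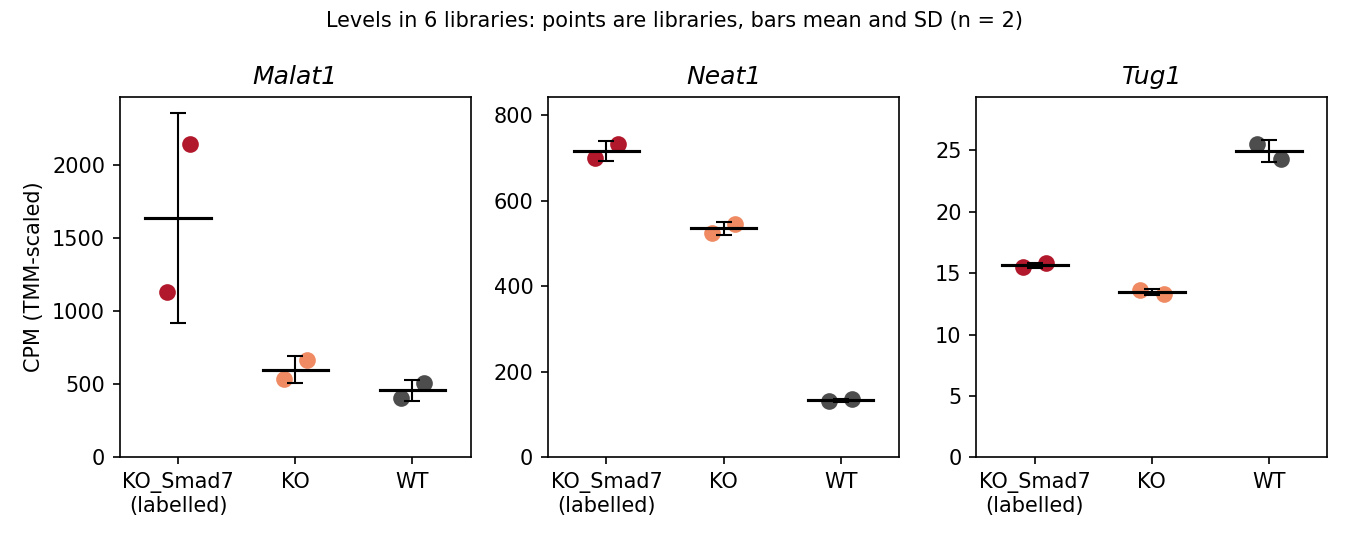
CPM of Malat1, Neat1 and Tug1 (y axes from 0, 1 panel a gene) in the libraries of KO_Smad7, KO and WT (x axis). Points are libraries and the bars give the mean and SD (n = 2); Neat1 is highest in KO_Smad7 with a mean of 717 CPM and lowest in WT at 134, Tug1 is highest in WT, and the KO_Smad7 points of Malat1 lie at 1129 and 2146.

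Neat1 held 525 and 547 CPM in KO, against 131 and 136 in WT. The raw counts behind these values were 10296 and 10404 in KO, against 2225 and 2432 in WT. Replicate 2 held 1.04 times the CPM of replicate 1 in both groups, and the groups did not overlap, as was so for 82.5% of genes tested. The log2 fold was 2.00 (SE 0.039, adjusted p = 3.9e-92, edgeR's quasi-likelihood test). A higher log2 fold was found for 775 of 17342 genes (4.47%) and for 50 of 484 lincRNAs tested. By its level, Neat1 stood at rank 265 of the genes tested in KO and at rank 2065 in WT.

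In KO_Smad7, Neat1 held 701 and 734 CPM, above both KO libraries. The log2 fold against KO was 0.42 (SE 0.035, adjusted p = 1.1e-22) and that against WT was 2.42 (SE 0.039, adjusted p = 1.6e-103), both from edgeR. Groups did not overlap for 86.3% of genes in the first of these comparisons and 89.9% in the second. A rise of this size over KO was common, since 307 of 484 lincRNAs had a higher log2 fold. With offsets for GC content and transcript length computed on the long transcript, the log2 fold against KO turned to −0.18. Neat1 was then called lower (edgeR adjusted p = 1.3e-07). With the same offsets computed on the short transcript the log2 fold was 0.59, in a fit added after the data were seen. With these offsets, the direction between KO_Smad7 and KO therefore depended on which Neat1 transcript was taken to be counted.

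Tug1 held 13.6 and 13.3 CPM in KO, against 25.5 and 24.3 in WT, from counts of 267 and 253 against 433 and 434. Its replicates were as close as those of Neat1. KO lay below WT without overlap, and in this comparison the groups did not overlap for 82.5% of genes tested. The log2 fold was −0.89 (SE 0.087, adjusted p = 5.4e-18, edgeR). With offsets for GC content and length it was −0.16 and no longer passed (adjusted p = 0.088). KO_Smad7 had 15.5 and 15.8 CPM, between KO and WT. The log2 fold was 0.22 against KO (SE 0.096, adjusted p = 0.035) and −0.67 against WT (SE 0.087, adjusted p = 4.5e-12), by the same edgeR test. The first of these calls was lost whenever any 1 of the 6 libraries was left out, with log2 folds of 0.18 to 0.22. With GC and length offsets the log2 fold against KO turned to −0.85, and Tug1 was called lower (edgeR adjusted p = 1.6e-15).

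Malat1 held 535 and 664 CPM in KO, against 407 and 509 in WT. The lower KO library lay just above the higher WT library. The log2 fold of 0.39 did not pass (SE 0.42, adjusted p = 0.48, edgeR). KO_Smad7 held 1129 and 2146 CPM, both above every other library, from 17497 and 39678 counts. The log2 fold was 1.45 against KO (SE 0.41, adjusted p = 0.046) and 1.84 against WT (SE 0.42, adjusted p = 0.023). Both calls rest near the threshold: against KO the edgeR adjusted p exceeded it when any 1 library other than KO_Smad7 replicate 1 was left out. Without KO_Smad7 replicate 2 the log2 fold against KO was 0.91 (edgeR adjusted p = 0.069), and without replicate 1 it was 1.83 (edgeR adjusted p = 0.015). Against WT the call was lost when any library of KO or WT was left out, with log2 folds of 1.67 to 1.99.

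**Figure D2:**
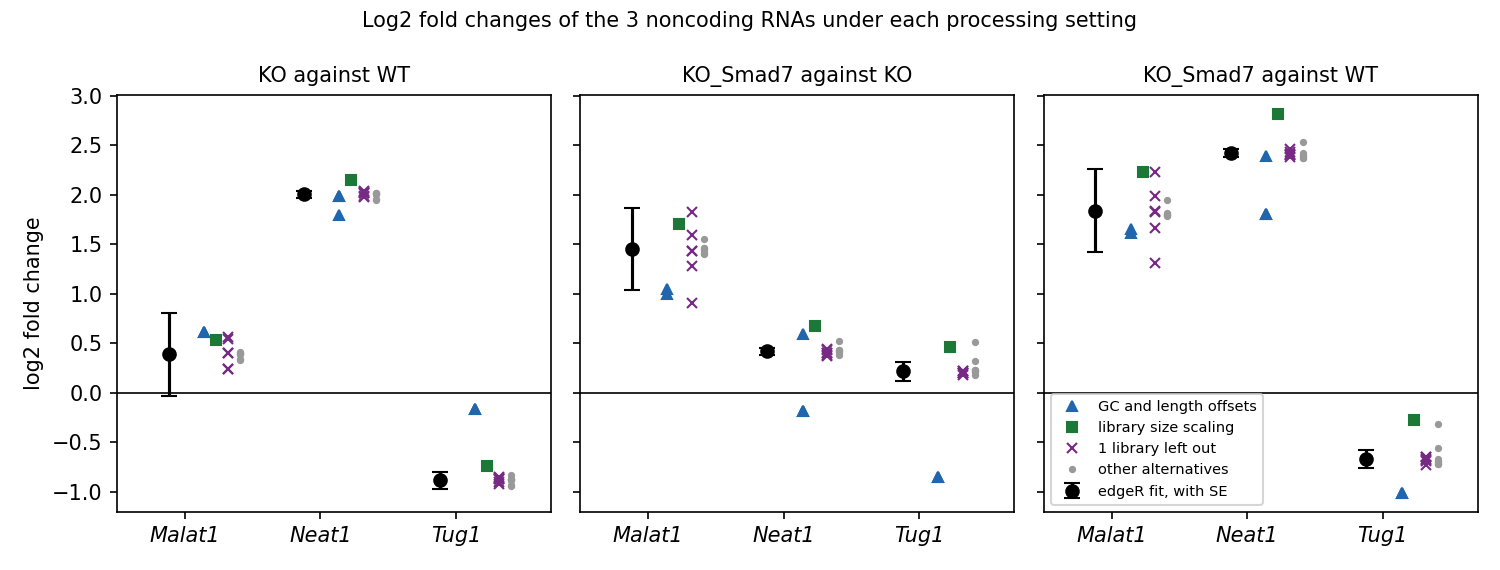
Log2 fold change (y axis) of each RNA (x axis) in 3 comparisons (panels), as fitted by edgeR with its SE (black) and under each processing alternative (coloured marks). Neat1 stays near 2 in KO against WT, the folds of Malat1 spread widely when a library is left out, and in KO_Smad7 against KO the GC and length offsets put Tug1 below 0 and Neat1 on either side of it.

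Malat1 varied between replicates far more than Neat1 or Tug1. Its quasi-likelihood dispersion, edgeR's measure of the spread left between replicates, was 109, rank 1 of 17342 genes. The median was 0.998, and Neat1 and Tug1 had 0.835 and 0.979. Replicate 2 held 1.90 times the CPM of replicate 1 in KO_Smad7, 1.24 times in KO and 1.25 times in WT. Among 4658 genes with a mean of at least 50 CPM, the difference between replicates of Malat1 ranked 1 in KO_Smad7, 4 in KO and 4 in WT. Its log2 difference in KO_Smad7 was 0.93, and the next largest was −0.42, for Rbmxl2. The median size over these genes was 0.049. The neighbour Neat1 had a log2 difference of 0.067 in the same pair of libraries, near that median.

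Set against each other within a library, which takes out the scaling, Neat1 gave 0.981 and 0.824 counts per Malat1 count in KO, against 0.323 and 0.267 in WT. In KO_Smad7 the ratio was 0.621 and 0.342. The 3 groups did not overlap, and KO was the highest, though no share for ratios of other genes was computed. On the log2 scale the ratio was 1.61 higher in KO than in WT and differed by −0.96 between KO_Smad7 and KO. An exact permutation test of 2 libraries against 2 gave p = 0.333, two-sided, for each of these, which is the smallest it can give. The ratio of Neat1 to Tug1 was 2.89 higher on the log2 scale in KO than in WT, with the same exact p of 0.333.

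Per kilobase of the longest transcript, the Malat1 row was the highest of the 3 and the Tug1 row the lowest in every group. The Tug1 row leaves out reads on 4 small features inside its exons, described below. With them added, Tug1 averaged 64.6 CPM in WT, against 24.9 for the row alone. Levels per kb were not computed with them added, so the place of Tug1 is given for its row. Malat1 averaged 235 ± 103 CPM per kb in KO_Smad7, 85.8 ± 13.1 in KO and 65.5 ± 10.3 in WT (SD, n = 2 each). On the length of the long transcript, Neat1 averaged 34.5 ± 1.14 CPM per kb in KO_Smad7, 25.8 ± 0.759 in KO and 6.43 ± 0.162 in WT (SD, n = 2 each). On the length of the short one it averaged 239 ± 7.89, 178 ± 5.25 and 44.5 ± 1.12 CPM per kb in the same groups. Neat1 was then above Malat1 in KO and below it in WT, while in KO_Smad7 both lay within the spread of Malat1. Tug1 averaged 2.33 ± 0.0323 CPM per kb in KO_Smad7, 2.00 ± 0.0321 in KO and 3.71 ± 0.134 in WT (SD, n = 2 each).

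The Tug1 row did not hold all reads over its annotated exons. In GENCODE M21, 4 small RNA features, Gm27624, Gm27517, Gm27937 and Gm27640, lie wholly inside Tug1 exons on the same strand and cover 648 bases. Their summed counts were 591 and 632 in KO_Smad7, 456 and 421 in KO, and 679 and 702 in WT, more than the Tug1 row itself in every library. They made up 71.1% and 68.4% of both together in KO_Smad7, 63.1% and 62.5% in KO, and 61.1% and 61.8% in WT. The like features inside exons of Malat1 and Neat1 stood at 0 in all 6 libraries. This does not show that the rows of Malat1 and Neat1 held all their reads. Among hosts with at least 1000 counts over the 6 libraries, 7 of 17 such features held counts, those in Tug1 among them. All of these features were looked up after their values were seen.

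All 4 features were lower in KO than in WT, with log2 folds of −0.75 to −0.85, and all 4 were higher in KO_Smad7 than in KO, with log2 folds of 0.48 to 0.88. With the 4 features added, Tug1 averaged 51.8 ± 2.59 CPM in KO_Smad7, 36.1 ± 0.997 in KO and 64.6 ± 1.46 in WT (SD, n = 2 each). Whether this sum held all reads over Tug1 exons was not tested. The log2 fold of this sum was −0.84 in KO against WT (edgeR adjusted p = 1.9e-29), close to that of the row alone. In KO_Smad7 against KO it was 0.52 (edgeR adjusted p = 4.3e-14), above the 0.22 of the row alone, and against WT it was −0.32 (edgeR adjusted p = 9.3e-08). Which annotation the authors counted on is not stated in the sources used here.

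**Figure D3:**
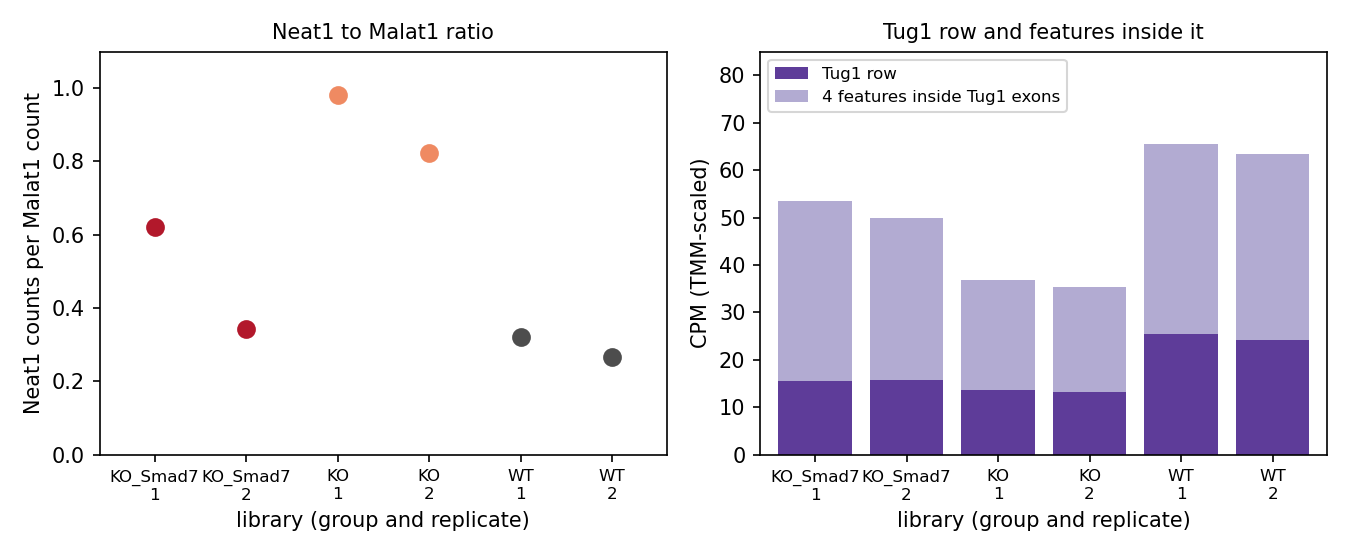
Left, counts of Neat1 per count of Malat1 (y axis) in each library (x axis), with both KO libraries above 0.8 and both WT libraries below 0.33. Right, CPM of the Tug1 row and, stacked on it, of 4 small features inside Tug1 exons (y axis, bars from 0) in the same libraries; the features exceed the row in every library.

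The libraries also differed in other contents. Annotated lincRNAs took 0.518% and 0.642% of counts in KO_Smad7, 0.291% and 0.311% in KO, and 0.271% and 0.283% in WT. Without Malat1 and Neat1 they took 0.306% and 0.308% in KO_Smad7, 0.187% and 0.193% in KO, and 0.224% and 0.226% in WT, so KO was then the lowest. Of 484 lincRNAs tested, 274 were called higher and 42 lower in KO_Smad7 against KO, with a median log2 fold of 0.80, beside 0.04 for all genes. In KO against WT the lincRNA counts were 120 each way, with a median of 0.11.

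Mitochondrial transcripts took 2.48% and 2.33% of counts in KO_Smad7, 1.40% and 1.37% in KO, and 1.58% and 1.53% in WT. Ribosomal protein genes took 3.62% and 3.58% in KO_Smad7, 5.26% and 5.56% in KO, and 4.82% and 5.02% in WT. The part of these differences in the levels of the 3 RNAs was not tested.

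Because poly(A) selection bears on Malat1 and the long Neat1, a list of 29 RNAs made without a poly(A) tail was examined, mainly replication-dependent histone genes. Their summed level was 21.3 and 20.6 CPM in KO_Smad7, 21.1 and 17.0 in KO, and 29.0 and 30.9 in WT, with 6 to 10 of the 29 at 0. Their part in the levels of Malat1 and Neat1 was not tested. Of 9 that could be tested, 1 was called higher and 4 lower in KO against WT, and 1 higher and 2 lower in KO_Smad7 against KO. Of all genes, 34.5% were called higher and 33.3% lower in the first comparison, and 37.8% and 36.8% in the second.

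Markers of other cell types also differed between groups. All 8 primitive endoderm markers were called lower in KO against WT, beside 33.3% of all genes. Their summed level was 10.95 and 11.8 CPM in KO_Smad7, 8.15 and 7.09 in KO, and 94.6 and 90.2 in WT, with none at 0. The 8 trophectoderm markers summed to 46.9 and 51.9 CPM in KO_Smad7, 51.8 and 51.4 in KO, and 46.6 and 42.2 in WT, with at most 1 at 0. The 8 fibroblast and feeder cell markers summed to 17.3 and 17.2 CPM in KO_Smad7, 10.1 and 8.93 in KO, and 7.54 and 8.32 in WT; Col3a1 and Lum were at 0 in every library of KO_Smad7 and KO. These 2 were picked out after their values were seen. Of the 3 fibroblast markers that could be tested, all 3 were called higher in KO_Smad7 against KO, beside 37.8% of all genes. In KO against WT 2 of them were called higher, beside 34.5% of all genes. Fewer cells of a type and less RNA per cell cannot be told apart in bulk RNA. The part of these cells in the levels of the 3 RNAs was not tested.

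RNA of the genes for paraspeckle proteins went largely the other way from Neat1. The same held for the other lists of protein genes below, so it is not particular to paraspeckles. Beside each list, 33.3% of all genes tested were called lower and 34.5% higher in KO against WT. In KO_Smad7 against KO these shares were 36.8% lower and 37.8% higher. All these values are RNA, and no protein was measured. Of 28 tested, 23 were called lower and 4 higher in KO against WT, with a median log2 fold of −0.45, beside 0.02 for all genes. Those with the smallest adjusted p encode proteins that bind RNA. Tardbp averaged 487 ± 13.97 CPM in KO and 879 ± 11.4 in WT (SD, n = 2 each; log2 fold −0.85), and Hnrnpa1 had a log2 fold of −0.77. Taf15, an RNA-binding protein, fell by 0.85 and the cleavage factor Cpsf6, which takes part in 3′ end choice, by 0.94 on the log2 scale. Sfpq fell by 0.78 on the log2 scale, while its partner Nono rose by 0.56.

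Against KO, KO_Smad7 had 18 of the 28 genes for paraspeckle proteins lower and 6 higher, with a median of −0.33. Sfpq averaged 323 ± 8.26 CPM in KO_Smad7 and 600 ± 14.9 in KO (SD, n = 2 each; log2 fold −0.89), and Nono 434 ± 13.6 and 750 ± 0.319 in the same groups (SD, n = 2 each; log2 fold −0.79). Smarca4, a chromatin remodeller found in paraspeckles, fell by 0.82 and Hnrnpa1 by 0.69 on the log2 scale. Higher in KO_Smad7 were Matr3, an RNA-binding protein of the nuclear matrix, at a log2 fold of 1.21, and Zc3h6 at 2.04. With scaling by library size alone, 14 were lower and 11 higher.

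Genes for nuclear speckle and SR proteins, of the bodies where Malat1 gathers, were lower in KO for 23 of 24 tested, and none was higher. Their median log2 fold was −0.56. Pnn, a speckle protein tied to splicing, averaged 149 ± 2.20 CPM in KO and 375 ± 6.73 in WT (SD, n = 2 each; log2 fold −1.33). The SR proteins Srsf3 and Srsf10 had log2 folds of −0.91 and −1.34, and Clk1, a kinase that phosphorylates SR proteins, had −1.20.

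Against KO, KO_Smad7 had 18 lower and 4 higher, with a median of −0.51. The 4 that were higher were Pnn (log2 fold 0.54), Srsf10 (0.63), Clk1 (0.90) and its relative Clk4 (0.93), of which the first 3 are named above for their fall in KO. Among those lower, the log2 folds were −1.33 for U2af1 and −0.91 for U2af2, which recognise the 3′ splice site, −0.87 for Srsf3 and −0.81 for Ddx39b, an RNA helicase. KO_Smad7 was called lower than WT for all 24, beside 38.8% of all genes.

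Most genes of the machinery that makes and trims the RNase P ends were lower in both comparisons. Of 14 genes for RNase P, RNase Z and the processing of tRNA-like ends, 10 were lower in KO against WT, 3 were not called, and Rpp25 was higher (log2 fold 0.30). Pop1, a subunit of RNase P, averaged 126 ± 6.51 CPM in KO and 226 ± 5.79 in WT (SD, n = 2 each; log2 fold −0.84). Elac2, which is RNase Z, had a log2 fold of −0.75, the RNase P subunit Rpp30 −0.68, and Trnt1, the enzyme that adds CCA to tRNA ends, −1.53. Between KO_Smad7 and KO, 12 were lower and 1 higher in KO_Smad7; Pop1 had −1.22, Rpp25 −1.11, Rpp14 −1.12 and Elac2 −0.84, and the 1 that was higher was Trnt1, at 0.29; GC and length offsets made this −0.16.

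Genes of the nuclear exosome, which degrades nuclear RNA, and of its adaptors were lower for 16 of 17 tested in KO against WT, with Exosc5 the 1 that was higher. The log2 folds were −1.50 for C1d, −1.06 for Zfc3h1, −1.08 for Exosc9 and −0.62 for the catalytic subunit Dis3. KO_Smad7 had 13 lower and 3 higher than KO. Exosc2, Exosc4, Exosc7 and Dis3 had log2 folds of −1.27, −1.56, −1.06 and −0.81, while C1d, Zfc3h1 and Rbm7 were higher, at 0.53, 0.45 and 0.37; C1d turned to −0.60 with GC and length offsets.

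The N6-methyladenosine machinery, whose mark is found on Malat1, had 8 lower and 3 higher of 14 in KO against WT, and 10 lower and 4 higher in KO_Smad7 against KO. Ythdf3, a reader of the mark, averaged 185 ± 4.49 CPM in KO_Smad7, 79.5 ± 4.95 in KO and 189 ± 6.57 in WT (SD, n = 2 each). It was low in KO alone. In KO against WT the log2 fold was −0.95 for Rbm15, which guides the writer complex, −0.52 for the reader Ythdf2 and −0.55 for the nuclear reader Ythdc1, which became 0.19 with GC and length offsets. Rbm15b, Wtap and the eraser Fto had log2 folds of −0.84, −0.63 and −0.59 in KO_Smad7 against KO.

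Of 9 transcription factors known to act on these RNAs, 8 were lower and 1 higher in each of these steps. Trp53, an activator of Neat1 and Tug1, averaged 178 ± 1.13 CPM in KO_Smad7, 331 ± 11.4 in KO and 454 ± 7.65 in WT (SD, n = 2 each). Hif1a, a subunit of the hypoxia-inducible factor, had a log2 fold of −0.57 in KO against WT, and Atf2 and Ctcf had −0.80 and −0.43. Nrf1 had −1.08 and Ctcf −0.71 in KO_Smad7 against KO, and Atf2 was the 1 that was higher, at 0.62. With scaling by library size alone the count there was 4 lower and 1 higher.

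The other long noncoding RNAs listed were mostly lower in KO than in WT and mostly higher in KO_Smad7 than in KO. Over all 484 lincRNAs tested, 120 were higher and 120 lower in KO against WT, so the list does not stand for lincRNAs at large there. In KO_Smad7 against KO, 274 of the 484 were higher and 42 lower. Of 30 listed, 27 were tested; 18 were lower and 3 higher in KO against WT, with a median log2 fold of −0.70. Meg3 and Rian, of the imprinted Dlk1 cluster, had log2 folds of −0.89 and −0.92. Oip5os1 had −0.98 and Mir17hg, the host of a microRNA cluster, −1.38. Against KO, 16 were higher and 6 lower in KO_Smad7, with a median of 0.25. Xist, the RNA of X inactivation, averaged 115 ± 3.96 CPM in KO_Smad7 and 13.99 ± 1.19 in KO (SD, n = 2 each; log2 fold 3.04). Snhg14 had a log2 fold of 3.41, Oip5os1 1.44, and Lncenc1, a stem cell transcript, −2.10.

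**Figure D4:**
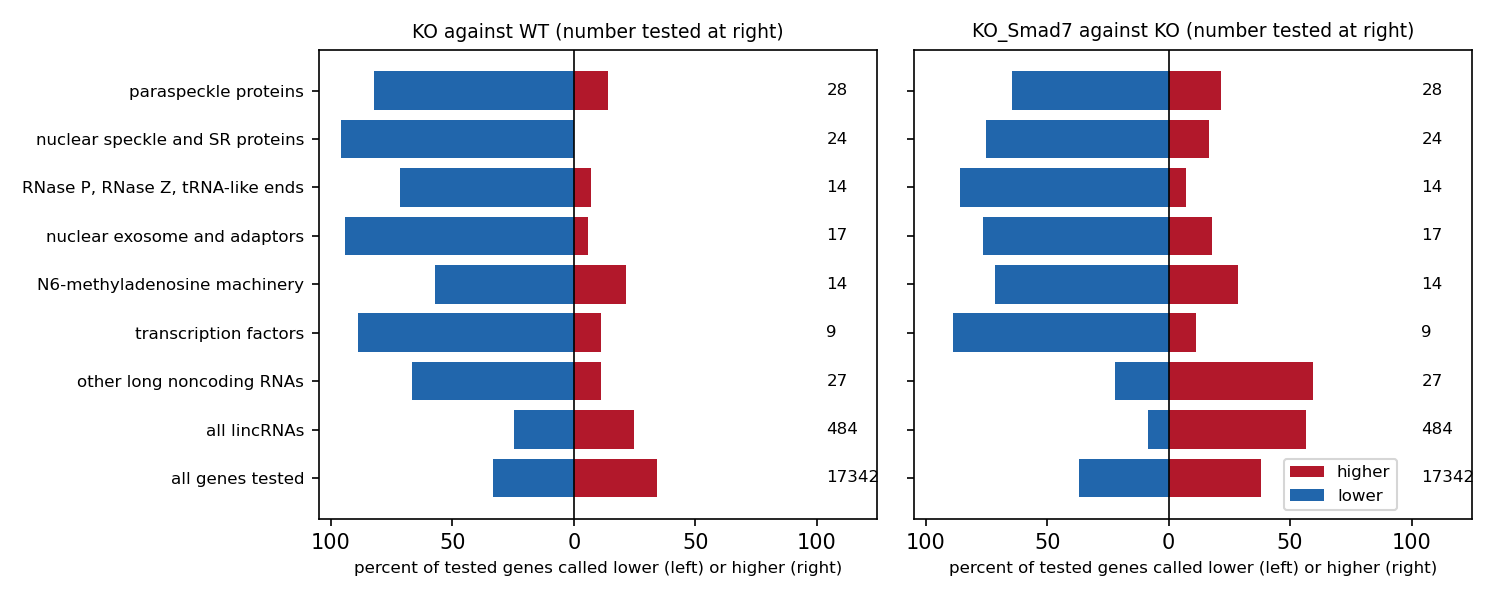
Share of each of 7 gene lists, of all lincRNAs and of all genes called lower (left of 0, blue) or higher (right of 0, red), in percent of the genes tested, for KO against WT and KO_Smad7 against KO; the number tested stands at the right. The 6 lists of protein genes drawn lie mostly to the left in both panels, and the other long noncoding RNAs lie mostly to the left in the first and to the right in the second.

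The genes beside the 3 RNAs had values of their own. Frmd8, 4223 bp from Neat1, averaged 54.0 ± 1.81 CPM in KO and 55.1 ± 2.34 in WT (SD, n = 2 each; log2 fold −0.03, SE 0.056, edgeR adjusted p = 0.64), and its log2 fold in KO_Smad7 against KO was −0.17 (edgeR adjusted p = 0.0044). With GC and length offsets the first became −0.30 and was called (edgeR adjusted p = 1.7e-07). Frmd8 was not called higher in either comparison, whereas Neat1 was in both.

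Morc2a, which overlaps Tug1 head to head, averaged 122 ± 3.30 CPM in KO_Smad7, 175 ± 3.03 in KO and 259 ± 3.61 in WT (SD, n = 2 each). Its log2 folds were −0.57 and −0.51 in KO against WT and KO_Smad7 against KO. The kit named in the labels does not mark strand, so reads of the shared 483 bp cannot be told apart. On the other side Smtn, 99172 bp away, had log2 folds of 0.01 (edgeR adjusted p = 0.89) and −0.89.

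Genes most like each RNA were found by the distance between their log2 CPM values in the 6 libraries, each centred on its own mean, among 10328 genes with a mean of at least 5 CPM. Nearest to Neat1 were Adgrb1 (distance 0.138), Slc15a1, Padi2, Grhl3 and Slc2a1 (0.228). Adgrb1 averaged 72.1 ± 0.398 CPM in KO_Smad7, 52.5 ± 0.975 in KO and 12.9 ± 0.690 in WT (SD, n = 2 each), nearly the proportions of Neat1. Slc2a1, a glucose transporter, averaged 1508 ± 58.9, 971 ± 3.09 and 253 ± 0.765 CPM in the same groups.

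Nearest to Tug1 were Ttc19 (0.0739), Chek1, Foxred2, Pds5b and Peli1 (0.0776). The 5 nearest to Malat1, Gdpd5, Shank1, Nrbp2, Ctbs and Cdc42bpg, lay at 0.471 to 0.679. The distance takes in the spread between replicates, which was large for Malat1. It therefore cannot say whether other genes share the course of Malat1 over the groups. Measured on group means in place of libraries, 1 of the 5 stayed for Neat1, 4 for Tug1 and 2 for Malat1.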

How the data were processed

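The authors deposited raw read counts per gene symbol. STAR, featureCounts 1.6.3 and the builds mm10 and GRCm38 are named in the submitters' processing notes without their roles. Neither the annotation release nor the strand setting is stated in the sources used here. Of the columns, 6 matched the labels; 2 matched none and were not used.

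Genes passing filterByExpr (17342) were tested with edgeR 4.0.16 (robust quasi-likelihood, TMM; limma 3.58.1, R 4.3.3) over 3 groups and 6 libraries with 3 residual degrees of freedom. Calls are Benjamini-Hochberg adjusted p under 0.05 over all genes tested. SEs were derived from the log2 fold and its F statistic. The test was checked on simulated counts. Alternatives used DESeq2 1.42.0, other scalings and filters, a replicate block, GC and length offsets (mgcv 1.9.3) and left-out libraries. Positions came from GENCODE M21.

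Named were the 3 RNAs, Smad7, lncSmad7, up to 4 called genes of each list by adjusted p, the nearest tested genes on either side, and the 5 most alike. Not every gene so chosen is reported here. Outside this rule, chosen after their values were seen, are the 4 features in Tug1, Rbmxl2, Matr3, Zc3h6, Col3a1, Lum, Exosc5, Rbm7, Clk4 and some second values of genes named in the other comparison. Members and lists were chosen with earlier results of these data known. Over all genes tested, the differences between replicates were nearly uncorrelated between groups (r between −0.00013 and 0.027). This does not settle whether replicate numbers pair the libraries for single genes. Malat1 was higher in replicate 2 in all 3 groups.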

Additional observations from a re-analysis of the deposited data

How the results depend on the processing

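Neat1 kept its call in KO against WT under every alternative run, with log2 folds of 1.80 to 2.15, and Malat1 stayed uncalled there. In KO_Smad7 against KO, Malat1 (1.45) no longer passed without the filter on low counts (1.41), with only the 4 libraries compared (1.46), with GC and length offsets (1.05) and with these and the replicate block (0.99); leaving out 1 library gave 0.91 to 1.83. Against WT it no longer passed without the filter (1.81) or with only 4 libraries (1.82), and leaving out 1 library gave 1.31 to 2.23.

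Neat1 in KO_Smad7 against KO turned to −0.18 with GC and length offsets on the long transcript and −0.19 with the block as well. It was called lower under both. Tug1 in KO against WT was −0.16 under both. Between KO_Smad7 and KO, Tug1 turned to −0.85 under both and was then called lower. It missed the threshold with DESeq2 (0.21), without the filter (0.18) and with 1 library left out (0.18 to 0.22). The cause was not tested. The replicate block alone gave 2.00 for Neat1, 0.39 for Malat1 and −0.89 for Tug1 in KO against WT and changed no call of the 3 in any comparison.

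Among other genes named, in KO against WT, Smtn turned to −0.044 with RLE scaling, −0.032 with DESeq2 and −0.24 with GC and length offsets with or without the block, and leaving out 1 library gave −0.090 to 0.12. Frmd8 turned to 0.11 with library size scaling, and leaving out 1 library gave −0.074 to 0.014; with GC and length offsets it was −0.30 and called lower. Ythdc1 turned to 0.19 with the offsets and 0.20 with the block as well, and Exosc5 to −0.031 with both. In KO_Smad7 against KO, Frmd8 turned to 0.073 with library size scaling and missed the threshold with DESeq2 (−0.19), with the filter of 1 CPM (−0.072) and without KO_Smad7 replicate 1 (−0.13). There, with the offsets, with or without the block, C1d turned to −0.60, Trnt1 to −0.16, Chek1 to −0.18, Pds5b to −0.37 and Peli1 to −0.45.

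Scaling by library size moved the median log2 fold of all genes to 0.17 in KO against WT, 0.29 in KO_Smad7 against KO and 0.48 in KO_Smad7 against WT. The share of calls that were higher was 61.7%, 65.7% and 68.3% under it, against 50.9%, 50.7% and 52.6% with TMM. Neat1 was then 2.15, 0.67 and 2.82. Each group had 2 libraries, and the spread between them was widest for Malat1 among the 3 RNAs.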

Other observations

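Within 500000 bp of Malat1 and Neat1, 60 genes were tested. In KO against WT 60.0% of them were called, 19 higher and 17 lower, beside 67.7% of all genes. In KO_Smad7 against KO 12 were higher and 33 lower, 75.0% in all beside 74.6% of all genes, with a median log2 fold of −0.32; over all genes 37.8% were higher and 36.8% lower. Around Tug1, 29 genes were tested, of which 9 were higher and 8 lower in KO against WT (58.6%, beside 67.7% of all genes) and 11 higher and 9 lower in KO_Smad7 against KO (69.0%, beside 74.6%).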
